A study of Mus musculus with 4 samples.

Results

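The nuclear-encoded genes of the mitochondrial respiratory chain were examined in the DNA of microglia, the brain's own macrophages, from the hippocampus. Members were the autosomal protein-coding genes whose symbols begin with Ndufa, Ndufb, Ndufc, Ndufs, Ndufv, Uqcr, Cox4 to Cox8 or Atp5, together with Sdha, Sdhb, Sdhc, Sdhd and Cyc1. There were 94 of them among 20665 autosomal protein-coding genes in RefSeq's annotation of GRCm38.p6 (mm10). By symbol, 39 belonged to complex I and 8 were complex I assembly factors, 4 belonged to complex II, 9 to complex III, 17 to complex IV and 17 to ATP synthase.

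CpG methylation had been read by bisulfite sequencing of the whole genome in 4 libraries, 2 labelled control and 2 labelled FGR, for intrauterine growth restriction, whose effect on microglial DNA methylation was the question of the study. All mice were of the genotype Tmem119-tdTomato+/-, a fluorescent reporter allele at a microglial gene, and all were 3 weeks old. How the restriction was produced, how the cells were isolated, and whether a replicate is 1 animal, 1 litter or a pool is not given in the labels, so every p-value here measures only the spread between these libraries. The libraries held 49563150 to 91762720 reads summed over cytosines, FGR replicate 1 the fewest and FGR replicate 2 the most, with a mean coverage of 6.51 to 6.76 reads per listed cytosine and none under 5. Only 8.89% of 15954515 autosomal CpGs were listed in all 4 libraries. As a check of the labelled cell type, over 10 of 10 microglial markers the median body level was 36.5% and 39.9% in the controls and 33.3% and 38.2% in the FGR libraries, beside 66.2% to 70.2% for 6 neuronal markers, 73.7% to 77.5% for 4 astrocyte markers, 77.3% to 80.5% for 3 of 4 oligodendrocyte markers and 75.6% to 82.2% for the endothelial marker Pecam1. In each library the microglial median was the lowest. Single markers overlapped, with microglial bodies at 6.25% to 73.1% over genes and libraries and neuronal ones at 41.8% to 82.4%. The microglial genes P2ry12 and Siglech had 59.2% to 73.1% and 60% to 68.6%, and the oligodendrocyte gene Olig2 had 4.05% to 18.5%.

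The respiratory chain passes electrons from NADH and succinate through complexes I, II, III and IV to oxygen and pumps protons across the inner mitochondrial membrane, and ATP synthase uses the gradient to make ATP. A few subunits are encoded in mitochondrial DNA and the rest are nuclear genes, most of them transcribed in every cell from CpG-rich promoters that usually lack methylation. Nuclear respiratory factor 1 (NRF1), ETS family factors such as GABP, and YY1 are known activators of many of these genes. Some complex IV subunits also exist as isoforms made in testis, heart and muscle or under low oxygen.

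Promoter sequences were available for 75 members in a RefSeq table of GRCm38.p6, as 300-base windows from 250 bases before the annotated start to 50 after it. The 250 bases before the start are shown for 6 members, with each CpG in capitals, to show how widely the number of CpGs there differed among members. Ndufv1 (chr19:4012756-4013005, minus strand), Cox6a1 (chr5:115348959-115349208, minus strand) and Atp5b (chr10:128083057-128083306, plus strand) represent subunits made in most or all tissues, and their promoters were close to free of methylation in every library. Cox7b2 (chr5:71548206-71548455, minus strand) and Cox8b (chr7:140900447-140900696, minus strand) represent restricted isoforms, and Ndufs4 (chr13:114388095-114388344, minus strand) is the member with the smallest p among promoters.
Ndufv1: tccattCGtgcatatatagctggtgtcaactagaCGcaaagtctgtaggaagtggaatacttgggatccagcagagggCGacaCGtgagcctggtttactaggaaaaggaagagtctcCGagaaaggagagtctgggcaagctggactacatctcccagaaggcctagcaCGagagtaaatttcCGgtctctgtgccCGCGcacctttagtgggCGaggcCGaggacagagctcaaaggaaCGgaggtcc
Cox6a1: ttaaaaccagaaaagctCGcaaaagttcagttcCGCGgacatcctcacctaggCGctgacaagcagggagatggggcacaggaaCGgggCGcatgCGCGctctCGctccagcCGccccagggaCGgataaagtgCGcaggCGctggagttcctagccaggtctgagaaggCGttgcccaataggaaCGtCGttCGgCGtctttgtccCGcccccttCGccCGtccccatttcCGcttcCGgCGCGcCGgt
Atp5b: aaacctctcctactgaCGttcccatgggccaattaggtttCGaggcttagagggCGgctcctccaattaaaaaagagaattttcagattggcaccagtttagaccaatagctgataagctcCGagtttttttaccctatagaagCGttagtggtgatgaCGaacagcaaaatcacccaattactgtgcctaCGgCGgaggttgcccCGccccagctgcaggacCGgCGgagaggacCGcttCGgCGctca
Ndufs4: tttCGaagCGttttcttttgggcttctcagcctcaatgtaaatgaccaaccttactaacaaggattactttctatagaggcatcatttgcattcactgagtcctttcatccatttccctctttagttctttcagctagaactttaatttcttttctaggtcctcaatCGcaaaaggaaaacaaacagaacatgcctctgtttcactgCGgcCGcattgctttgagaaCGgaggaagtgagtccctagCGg
Cox7b2: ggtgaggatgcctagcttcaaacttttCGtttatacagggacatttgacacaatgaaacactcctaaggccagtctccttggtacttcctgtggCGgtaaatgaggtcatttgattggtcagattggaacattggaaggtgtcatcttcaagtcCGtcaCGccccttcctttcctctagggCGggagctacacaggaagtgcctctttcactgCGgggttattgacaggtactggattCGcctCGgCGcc
Cox8b: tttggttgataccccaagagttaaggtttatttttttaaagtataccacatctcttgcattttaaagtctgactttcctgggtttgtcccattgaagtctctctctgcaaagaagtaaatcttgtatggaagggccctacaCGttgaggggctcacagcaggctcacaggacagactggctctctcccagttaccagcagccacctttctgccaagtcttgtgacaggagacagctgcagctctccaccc

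These stretches held 12 CpGs in Ndufv1, 26 in Cox6a1, 14 in Atp5b, 7 in Ndufs4, 9 in Cox7b2 and 1 in Cox8b. Over the whole 300-base windows the 75 members had a median of 20 CpGs and a median observed-to-expected CpG ratio of 0.833, and the 16457 autosomal coding genes with a window had medians of 14 and 0.597. The NRF1 core GCATGCG, searched on both strands like all that follow, was found in 12 members (16%) and in 4.59% of all windows. The ETS motif CCGGAAG was found in 18 members (24%) and in 12.3% of all windows, and the YY1 core ATGGCGG in 9 members (12%) and in 5.51%. These 3 motifs contain a CpG, as does the SP1 core given next. The members' windows held more CpGs, whose part in these shares was not tested. The SP1 core GGGCGGG was found in 37.3% of members beside 34.7%, CCAAT in 42.7% beside 39.1%, and TATAAA in 10.7% beside 13.5%. None of these motifs contains another, though their matches may share bases, and a match is only a run of letters, not a site shown to be bound.

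Members with the NRF1 core came from every complex: Ndufa6, Ndufa8 and Ndufa11 of complex I, the assembly factors Ndufaf4 and Ndufaf5, Sdhb, Uqcrc1, Uqcr11, Cox6a1, and Atp5g2, Atp5k and Atp5l of ATP synthase. Within 500 bp of the start most of them had little methylation over the 4 libraries summed, where level means methylated reads over all reads. The levels ran from 0.438% in Atp5l to 1.84% in Uqcrc1, apart from 5.83% in Sdhb, 13.3% in Ndufa8 and 32.9% in Atp5k. Among the 9 members with the YY1 core the summed level ran from 0% in Ndufa7 over 182 reads to 7.67% in Ndufa9 and 17.1% in Ndufs4. A read was counted at each CpG it covered, so counts at neighbouring CpGs are not independent. Intervals and the limits for a count of 0 given below cover counting error only and are too narrow. In the test described below, the median variance of promoters was 2.89 times that of counting error.

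Most respiratory chain promoters were almost free of methylation in these microglia. Of 73 members with an annotated start and at least 40 reads over the 4 libraries, 52 had a summed promoter level under 5%, 13 lay at 5% to 20%, 4 at 20% to 50% and 4 at 50% or more. The share under 5% was 71.2% of these members and 42.2% of 14322 coding genes under the same minimum, and the share at 50% or more was 5.48% beside 29.7%. The median level was 1.45% for the members and 9.28% for all these genes. No test was made of these differences between sets of genes.

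Along the 75 members with an annotated start, methylation was lowest from 100 bp before the start to 700 bp after it, where each 100-bp bin lay between 0.25% and 8.08% in all 4 libraries. The same bins of all coding genes lay between 12.9% and 29.8%. In the members the level then climbed to 33.7% and 32.5% in the controls and 27.6% and 25.1% in the FGR libraries in the bin that begins 700 bp into the gene. It reached 56.5%, 47.6%, 49.5% and 59.8% in the bin that begins at 1000 bp and 81.5%, 77.6%, 87.96% and 86.7% in the bin that begins at 1400 bp. On the other side the level was 16.6% to 29.8% in the bin that begins 600 bp before the start and 44.8% to 75.4% in the one that begins 1000 bp before it. The 4 libraries crossed each other along this profile.

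**Figure D1:**
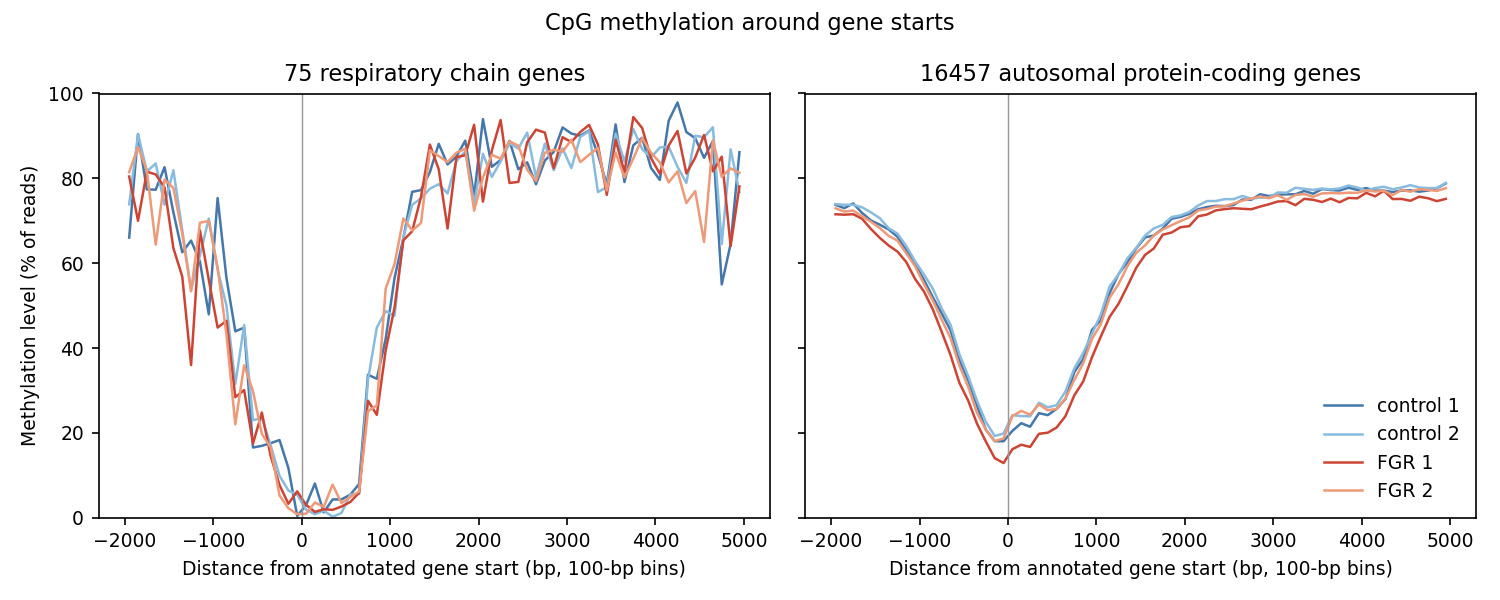
CpG methylation level (% of reads, vertical axis) in 100-bp bins of distance from the annotated gene start (bp, horizontal axis), 1 line per library, for the 75 respiratory chain genes with a start on the left and 16457 autosomal protein-coding genes on the right. In the respiratory chain genes the bins from 100 bp before to 700 bp after the start stay between 0.25% and 8.08%, and the lines of control and FGR libraries cross.

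Of the 8 core subunits with a measured promoter, all but Uqcrfs1 were close to free of methylation, with means over the 4 libraries of 0.146% to 1.41%. Of the core subunits below the minimum for a test, Sdhb had a summed level of 5.83%, and Cox5b had 2.74%, with 20% over 15 reads in control 1. Ndufv1, the subunit of complex I that oxidises NADH, had 0% in control 1 (44 reads), 0% in control 2 (41 reads), 0.585% in FGR 1 (171 reads) and 0% in FGR 2 (52 reads). A count of 0 in 44 reads allows a level of up to 6.82%. Ndufs7, which carries an iron-sulfur cluster near the quinone site, had 0%, 0%, 1.74% and 0% in the same order. Its neighbour in complex I, the iron-sulfur subunit Ndufs8, had 1.15%, 0%, 0% and 0%. In these 3 genes the highest level in any library was 1.74%. The methylated reads of Ndufv1 and Ndufs7 were all in FGR 1, and that of Ndufs8 was in control 1.

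Ndufv2, the partner of Ndufv1 in the NADH-oxidising module, had 0% and 0% in the controls and 0.862% and 0.810% in the FGR libraries. That is 1 methylated read of 116 and 2 of 247 beside none of 76 and 59, where a count of 0 allows up to 3.95% and 5.08%, so the groups were not distinguishable at this depth. Cox6a1, the complex IV subunit made in most tissues, had 0.980%, 0%, 1.11% and 0%. Atp5b, the catalytic beta subunit of ATP synthase, had 0%, 0.649%, 0% and 1.11%. Over the 8 core subunits with a measured promoter the median level was 0.427%, beside 2.87% over all 41 members measured.

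In complex III, Uqcrc1, a large core protein, had 0%, 2.99%, 2.67% and 0%. Uqcrc2, its partner, has no entry in the promoter table, and the less methylated of its 2 gene ends had 0%, 0%, 0% and 1.15%. Uqcrfs1, the Rieske iron-sulfur protein, was higher and more scattered, at 25%, 7.78%, 6.25% and 23.0%. Its highest and its second highest library belonged to different groups. For Ndufs3, another core subunit of complex I, no CpG within 500 bp of the start was listed in control 2, so it was not tested, and within 250 bp of the start it had 0% in control 1 (55 reads), FGR 1 (15 reads) and FGR 2 (41 reads).

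The 4 members with an annotated start and a summed promoter level of 50% or more were Cox7b2, Cox8b, Ndufb4b and Ndufc2. Cox7b2, an isoform known from testis (chr5:71442823-71548205, minus strand), had 68.4% (95% Wilson interval 57.5% to 77.6%), 84% (71.5% to 91.7%), 85.5% (73.8% to 92.4%) and 73.5% (63.1% to 81.8%) in control 1, control 2, FGR 1 and FGR 2. The groups overlapped. Cox8c, another isoform known from testis (chr12:102899306-102900534), has no annotated start in the table, and the less methylated of its ends still had 78.3%, 77.5%, 81.25% and 77.4%. Ndufb4b, a second copy of the complex I gene Ndufb4, had 94.7%, 93.3%, 100% and 96.6%, and reads of such copies may be split between them.

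Cox8b, the heart and muscle isoform, had 18.2% and 20% in the controls and 71.0% and 72.1% in the FGR libraries, and the groups did not overlap. The controls rest on 11 reads over 2 CpGs and on 5 reads over 1 CpG, below the minimum for a test, and from beyond 500 to 1000 bp from the start the order was the other way, with 90.7% and 100% in the controls and 83.7% and 82.9% in the FGR libraries. Ndufc2, an accessory subunit of complex I with 8 CpGs in its window, had 37.5%, 60.7%, 30% and 72.2% over 10 to 54 reads. Cox6b2, a testis isoform, had lower values than those, with 7.69%, 10.2%, 0% and 11.1%. Cox7a1, the heart and muscle isoform, had only 15 reads near its start in all libraries together.

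The ends of 3 further restricted isoforms could be read but not assigned to a start. Cox6a2, the heart and muscle partner of Cox6a1, had 27.8% to 72.0% at one end and 43.75% to 69.0% at the other, with 11 to 31 reads each. Cox4i2, the subunit isoform of lung and placenta, had 32.1% to 100% and 60% to 92.3%. Ndufa4l2, a gene known to be induced by low oxygen, had 0%, 6.25% and 13.0% at its low-coordinate end in control 1, FGR 1 and FGR 2 and 70.6% to 86.7% at the other end. Only Ndufa4l2 among these 3 had an end with levels under 20% in every library that listed it.

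Among members with at least 40 reads, those with the fewest promoter CpGs had high levels. All 3 members with fewer than 10 CpGs in the 300-base window and at least 40 reads, Ndufb4b, Ndufc2 and Cox8b, had summed levels of 60.2% to 95.1%. Cox7a1, with 7 CpGs, had 13.3% over 15 reads and was left out by the minimum of reads. Cox6b2 and Cox7b2, with 10 CpGs each, had 8.57% and 76.4%. Of the 70 members with 10 or more CpGs, 59 had a level under 10% and the median was 1.43%. Across the 73 members Spearman's rho was -0.381. The points share the same 4 libraries, and the number of CpGs also sets how many reads a window can give.

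**Figure D2:**
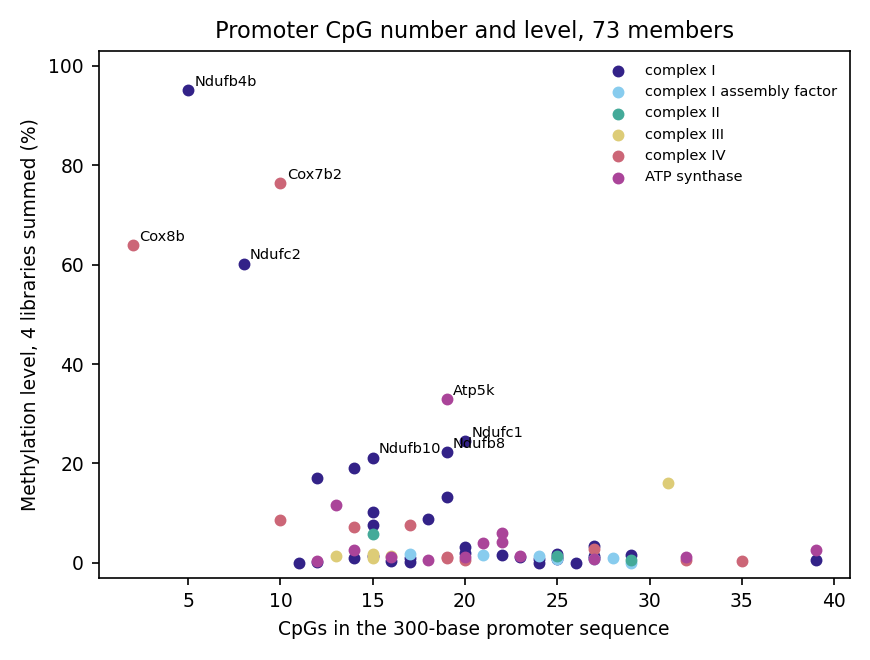
Number of CpGs in the 300-base promoter sequence (horizontal axis) and methylation level within 500 bp of the start, 4 libraries summed (%, vertical axis), for 73 members with at least 40 reads, coloured by complex. Names mark members at 20% or more: Ndufb4b, Cox7b2, Cox8b and Ndufc2 at 50% or more, and Atp5k, Ndufc1, Ndufb8 and Ndufb10 between 20% and 50%.

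No respiratory chain gene passed the test between FGR and control microglia in any of the 3 regions. Whole spans with 2 kb on each side were measured in 94 members, promoters, meaning 500 bp on each side of the start, in 41, and gene bodies, from 1 kb inside the start to the gene end, in 78. Of these, 38 promoters and 65 bodies belonged to members with an annotated start. Bodies without one, among them Atp5a1, Ndufb9, Cox4i2, Cox6c, Ndufs1 and Sdhc, ran between points 1 kb inside both gene ends. A quasi-binomial test of methylated reads with limma's moderated dispersion called 0 members, where a call needed a level difference of 10 points or more and a p under 0.05 after Benjamini-Hochberg adjustment, beside 0% of 20219 spans, 0% of 5069 promoters and 0% of 17427 bodies of all coding genes. The smallest adjusted p of a member from this limma-moderated test was 0.745 for spans, 0.916 for promoters and 0.623 for bodies. At an unadjusted p under 0.05 there were 10 members by span beside 6.4% of all spans, 2 by promoter beside 4.08% and 2 by body beside 6.51%. Of these, 6 spans were lower in FGR beside 5.19% of all spans, 1 promoter beside 2.27% and 1 body beside 5.1%. The others were higher in FGR, beside 1.21% of all spans, 1.81% of promoters and 1.41% of bodies. A second tool, limma on log2 methylated-to-unmethylated ratios, also called 0 members, with 14 spans at an unadjusted p under 0.05 beside 6.15% of all spans, 3 promoters beside 5.29% and 4 bodies beside 5.63%.

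Over all 41 members' promoters the direction was split, with FGR lower in 21 and a median difference of -0.16 points (FGR minus control), beside lower in 48.3% and a median of 0 over all promoters. Both FGR libraries lay below both controls in 7 members (14.7% of all promoters) and above them in 5 (16.1%). The reads of all members' promoters were also taken as 1 pool, which includes windows below the minimum for a test. This pool gave 10.3% and 8.29% in the controls and 7.45% and 8.11% in the FGR libraries. Both FGR values were lower, with means of 9.27% ± 1.39 and 7.78% ± 0.471 (SD, n = 2 each) and a difference of -1.49 points, and the exact two-sided permutation test gave p = 0.33, the smallest that 6 assignments of 4 libraries allow. Over all coding genes the pooled promoter difference was -2.80 points.

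Among complex I promoters, Ndufa8, an accessory subunit (chr2:36036324-36049338, minus strand), had the largest difference downward among members with at least 5 CpGs and 20 reads in each library. Its levels were 13.3% (6 CpGs, 30 reads) and 46% (8 CpGs, 50 reads) in the controls and 9.27% (37 CpGs, 259 reads) and 1.96% (10 CpGs, 51 reads) in the FGR libraries. Both FGR libraries were below both controls, a mean difference of -24.1 points, with an unadjusted p of 0.0278 and an adjusted p of 1 from the limma-moderated test. Neither control listed a CpG within 250 bp of the start, where the FGR libraries had 3.17% over 126 reads and 0% over 41. A comparison CpG by CpG, with each group's reads summed at a CpG and every CpG given equal weight, gave -4.23 points at the 8 CpGs listed in both groups. The start of Morn5, a neighbouring coding gene, lies within 1 kb.

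Ndufs4, an accessory subunit of complex I whose loss causes a Leigh-like brain disease in mice (chr13:114287795-114388094, minus strand), had the largest difference upward among the 41 promoters that met the minimum for a test. Its levels were 9.38% (Wilson interval 5.76% to 14.9%) and 14.5% (8.28% to 24.1%) in the controls and 36.4% (19.7% to 57.05%) and 63.6% (42.95% to 80.3%) in the FGR libraries. The groups did not overlap, with means of 11.9% ± 3.61 and 50% ± 19.3 (SD, n = 2 each), a difference of 38.1 points, an unadjusted p of 0.0128 and an adjusted p of 0.916 from the limma-moderated test. The controls rest on 20 and 14 CpGs and each FGR library on 4. Within 250 bp of the start, where the sequence printed above lies, control 1 had 10% over 18 CpGs, while control 2, FGR 1 and FGR 2 had 90.9%, 80% and 75% over 2 CpGs each. Compared CpG by CpG at the 4 CpGs listed in both groups, the difference was -7.09 points, in the other direction, and in a window of 1000 bp on each side it was 11.5 points. The Ndufs4 body, measured over 320 to 482 CpGs, stood at 92.7%, 91.7%, 92.6% and 92.6%.

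Atp5k, subunit e of ATP synthase (chr5:108433246-108434399, minus strand), had the largest difference upward among members with at least 5 CpGs and 20 reads in each library. It had 0% in control 1 (38 reads), where a count of 0 allows up to 7.89%, and 31.9% in control 2, 39.5% in FGR 1 and 35.8% in FGR 2. Control 1 alone was low, and control 2 lay close to the FGR libraries. Within 250 bp of the start the levels were 0%, 8%, 0% and 4.65%, and beyond, up to 500 bp, they were 0%, 40.6%, 57.6% and 45.6%, with 3 CpGs listed in control 1 and 8 to 12 in the others. The difference of 21.7 points over all listed CpGs was -0.86 points when the 11 CpGs listed in both groups were compared CpG by CpG, but 30.6 points when the reads of those CpGs were summed by library. In a window of 250 bp on each side it was -1.67 points.

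Other promoters with a middle level also had low values next to the start and higher ones at the edge of the window, though not in every library. In Ndufb2, an accessory subunit of complex I, the levels within 250 bp of the start were 0%, 0%, 0% and 16.7%, the last over 6 reads, and beyond, up to 500 bp, they were 34.8%, 64.3%, 29.5% and 34.5%. Ndufb10, a membrane-arm subunit, had 0% in control 1 and 0.962% in FGR 2 within 250 bp, and 82.4%, 86.2%, 83.3% and 25.6% beyond. Atp5j2, subunit f of ATP synthase, had 0% in every library within 250 bp, over 5, 72, 7 and 6 reads. Beyond, it had 56.25%, 0%, 45% and 13.1%. Ndufc1, the partner of Ndufc2, had 0%, 0% and 3.23% within 250 bp where listed and 80%, 0%, 57.1% and 13.8% beyond. Ndufb7 had 81.0% in control 1 over 3 CpGs, all of them in the outer zone, and 0%, 0% and 1.43% in the other libraries.

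In Ndufb8 the CpGs next to the start were themselves at a middle level. This accessory subunit of the membrane arm had 36.2%, 28.9%, 20% and 26.7% within 250 bp of its start and 23.2%, 11.1%, 9.09% and 0% beyond that, up to 500 bp. The level next to the start was at a middle value in all 4 libraries, on 15 to 47 reads each. The whole window had 29.1%, 20%, 12.5% and 20%, a difference of -8.31 points with an unadjusted p of 0.322 (limma-moderated test). With reads summed by library over CpGs listed in both groups the difference was -17.8 points, and in a window of 1000 bp on each side it turned to 6.64 points.

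Cox6b1, the ubiquitous partner of Cox6b2, had 6.67%, 7.36%, 28.9% and 4.24%. FGR 1 alone was high, and the difference of 9.58 points was 0.13 points CpG by CpG over 30 CpGs listed in both groups and 7.83 points with their reads summed by library. Among the remaining promoters named by size of difference, Ndufa9 had 3.39%, 25.9%, 1.89% and 7.07%. Atp5g3, a c-ring subunit gene, had 12.5%, 4.08%, 0% and 2.75%, with both FGR libraries below both controls. Atp5e, the epsilon subunit, had 0%, 4.94%, 12.2% and 4.79%, a difference of 6.01 points that turned to -10.4 points with 1000 bp on each side. The differences of Ndufs6, Ndufaf1 and Ndufs5 were -3.63, -2.99 and -2.09 points, and those of Cox7b2, Ndufa11 and Cox8c were 3.30, 1.58 and 1.45 points. With 1000 bp on each side Ndufs6 and Ndufa11 turned to 4.35 and -7.20 points, Cox8c to -0.13 points, and Ndufaf1 and Ndufs5 moved to -20.1 and -4.92 points. Over CpGs listed in both groups, with reads summed by library, Ndufaf1 was at -0.11 points. Cox7b2 turned to -4.53 points without control 1 and to -2.68 points without FGR 1.

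**Figure D3:**
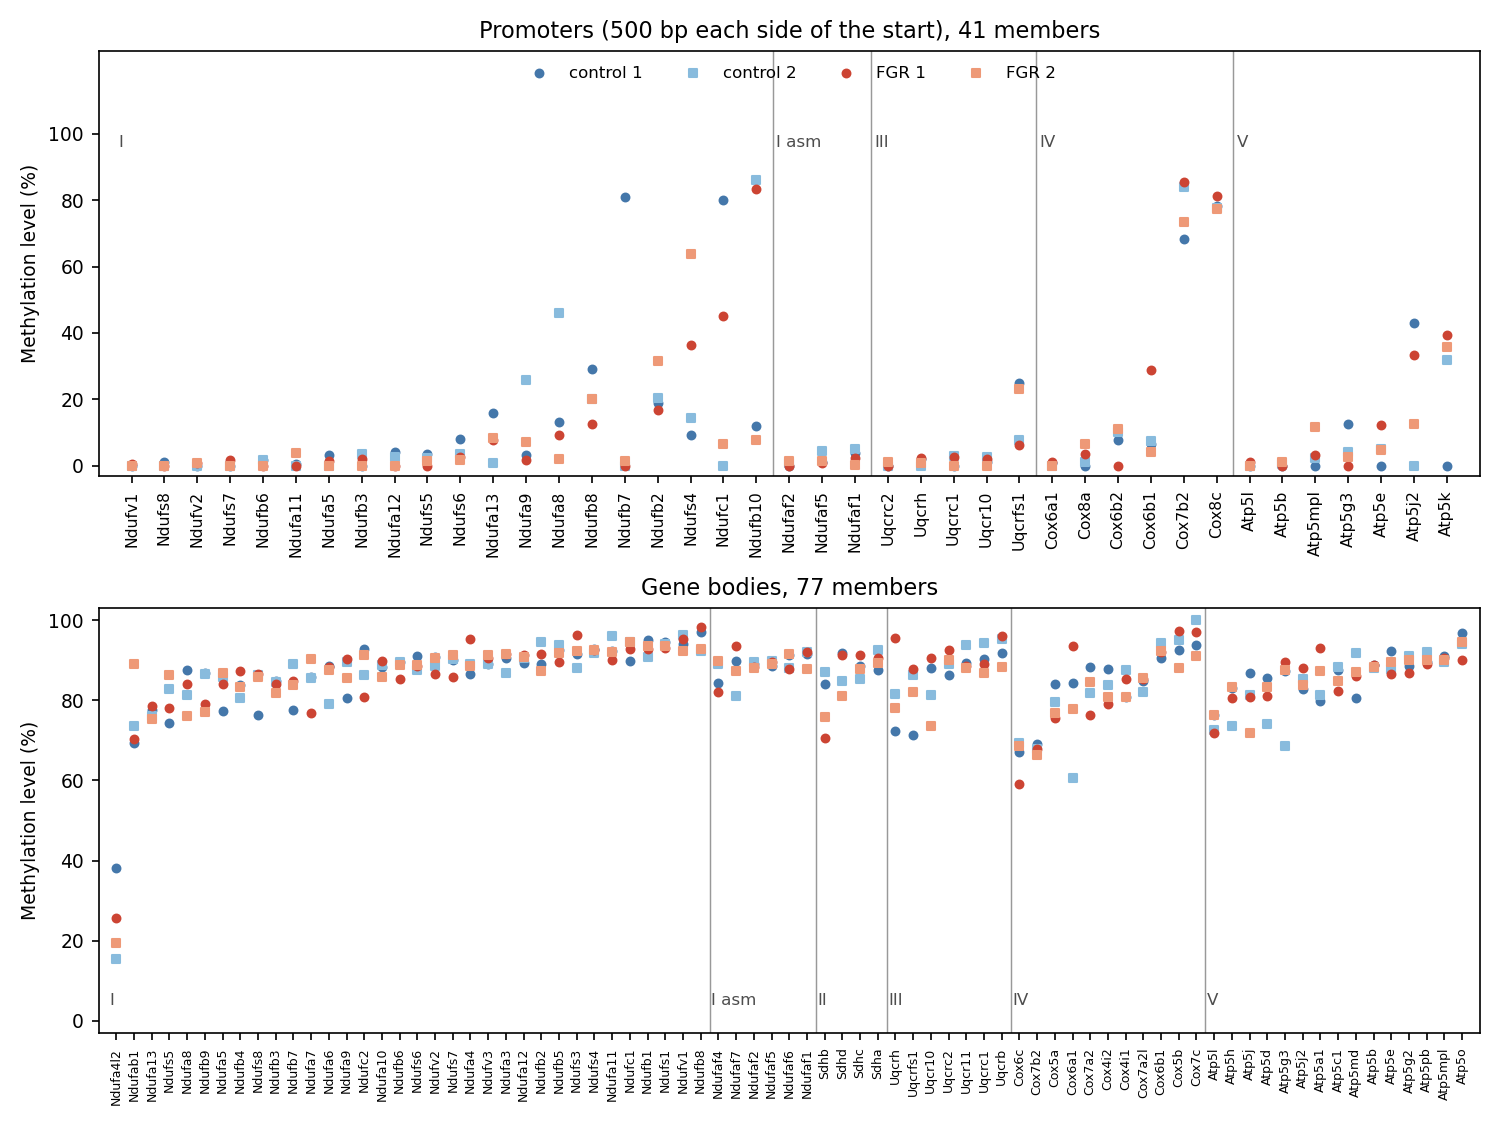
Methylation level (%, vertical axis) of each member in each of the 4 libraries (symbols), for 41 promoters above and 77 gene bodies below, with members ordered by complex (I, its assembly factors, II, III, IV and V for ATP synthase) and by mean level. Most promoters lie near 0 with a few scattered members in complex I, IV and V, and most bodies lie near the median of 87.9%, with Ndufa4l2 the lowest.

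Gene bodies of the respiratory chain were highly methylated. The median body level of the 78 measured members was 87.9%, beside 81.0% over all coding genes. The lowest was Ndufa4l2, with 38.3%, 15.5%, 25.6% and 19.4%, a gene of the low-oxygen response whose body window is 1 kb inside both ends because its start is not in the table. Others with low mean levels were Cox6c at 66.1%, Cox7b2 at 67.7% and Atp5l at 74.2%. The highest were Cox7c at 95.4%, Ndufb8 at 95.1%, Ndufv1 at 94.4%, Atp5o at 93.8% and Ndufs1 at 93.7%. Ndufb8 had a middle level at its promoter and 97.1%, 92.2%, 98.3% and 92.8% in its body.

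Body levels of FGR and control libraries lay close together. The reads of all members' bodies as 1 pool, bodies below the minimum included, gave 86.3% and 85.8% in the controls. In the FGR libraries the pool gave 85.5% and 85.4%, a difference of -0.64 points (exact two-sided permutation p = 0.33, the smallest possible). Over all coding genes the difference was -0.97 points. FGR was lower in 43 of 78 members (61.9% of all bodies), both FGR libraries lay below both controls in 15 (24.8%) and above them in 8 (11.2%), and the median difference was -0.67 points beside -0.71 over all bodies.

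Sdhb, the iron-sulfur subunit of succinate dehydrogenase (chr4:140961271-140979198, plus strand), had the largest body difference downward. Its levels were 83.9% and 87.1% in the controls and 70.6% and 75.8% in the FGR libraries, over 57 to 143 CpGs and 395 to 949 reads. Both FGR libraries lay below both controls, with means of 85.5% ± 2.24 in the controls and 73.2% ± 3.63 in FGR (SD, n = 2 each), a mean difference of -12.3 points, an unadjusted p of 0.00706 and an adjusted p of 0.623 from the limma-moderated test. At the 72 CpGs listed in both groups the difference was 1.88 points CpG by CpG, of opposite sign, and -5.09 points with reads summed by library. At CpGs listed in all 4 libraries it was -1.04 points, and at 10 reads per CpG it was -19.7 points. Of the other complex II bodies, Sdha, the flavoprotein, had 87.6%, 92.5%, 90.5% and 89.3%, and the membrane anchors Sdhc and Sdhd differed by 2.74 and -2.08 points.

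Atp5a1, the alpha subunit of ATP synthase (chr18:77773768-77782869), had the smallest p of any member by span and also a higher body level in FGR. Its body had 79.9% and 81.2% in the controls and 92.96% and 87.2% in the FGR libraries, a difference of 9.53 points with an unadjusted p of 0.0403 and an adjusted p of 0.750 (limma-moderated test). The groups did not overlap, and the difference at the 53 CpGs listed in both groups was 2.23 points CpG by CpG and 10.3 points with reads summed by library. At CpGs listed in all 4 libraries it turned to -6.91 points. At its low-coordinate end the levels were 1.02%, 5.56%, 0% and 29.6%, the last over 5 CpGs. Haus1, another coding gene, overlaps its window.

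The largest body difference upward was in Cox6a1, with 84.2%, 60.5%, 93.6% and 77.9% over 6 to 12 CpGs. Control 2 alone was low, and the groups overlapped. Uqcrh, the hinge protein of complex III, had 72.3%, 81.5%, 95.5% and 78.1%, again with 1 library apart from the others. Ndufb9 had 86.7%, 86.6%, 79.2% and 77.1%, with no overlap between the groups and a difference of -8.52 points. At 29 CpGs listed in both groups it was -1.77 points CpG by CpG and -0.02 points with reads summed by library. The other bodies named by size were Atp5j at -7.73, Cox4i2 at -5.95, Cox5a at -5.74, Uqcrfs1 at 6.15, Ndufab1 at 8.14 and Atp5g3 at 10.6 points. At CpGs listed in all 4 libraries Atp5j turned to 5.97, Cox4i2 to 2.64, Uqcrfs1 to -0.93 and Uqcrh, from 9.91, to -0.37 points. Cox5a turned to 0.52 points with reads summed over CpGs listed in both groups, Ndufab1 to -1.14 points without FGR 2 and Uqcrfs1 to -1.37 points without control 1.

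**Figure D4:**
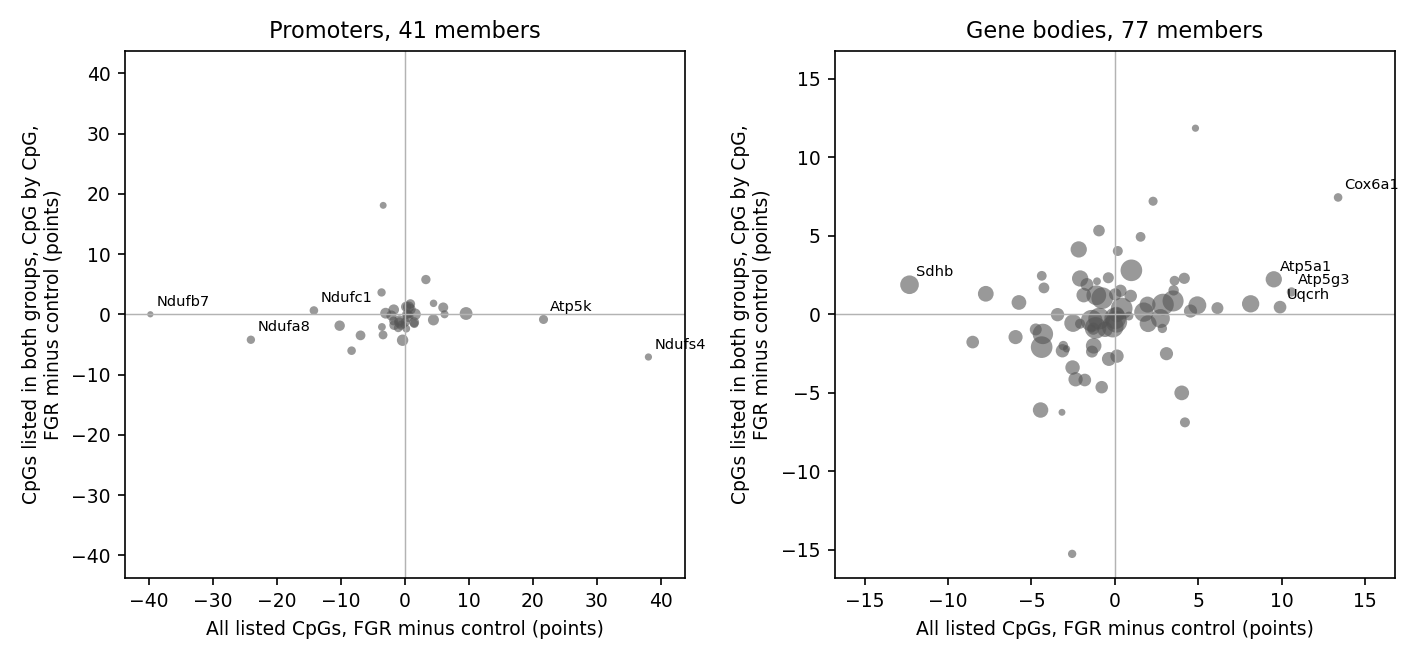
Difference in level between FGR and control (percentage points) over all listed CpGs (horizontal axis) and CpG by CpG over CpGs listed in at least 1 library of each group, with equal weight per CpG (vertical axis), for 41 promoters on the left and 77 bodies on the right, with larger points for more shared CpGs (up to 100). Ndufs4, Ndufa8 and Atp5k lie far out on the horizontal axis and at -7.09, -4.23 and -0.86 points on the vertical axis, and Sdhb lies at -12.3 and 1.88.

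By whole span FGR was lower in 66 of 94 members, beside 63.8% of all spans, with a median of -3.54 points beside -1.26. Both FGR libraries lay below both controls in 27 members (26.2% of all spans) and above them in 7 (10.4%). All 8 complex I assembly factors and all 4 complex II genes were lower, 30 of 39 in complex I, 6 of 9 in complex III and 10 of 17 in ATP synthase, while in complex IV 8 of 17 were lower. None of these spans passed the test.

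The level of a span joins the empty promoter with the methylated body, so by its construction it depends on the share of listed reads that fall near the start. Of the reads in the members' spans, 19.1% and 19.3% in the controls and 25.9% and 20.7% in the FGR libraries lay within 1 kb of the start. FGR 1 stood apart from the other 3 libraries. Over all coding genes the shares were 5.22%, 4.93%, 6.39% and 5.16%. With 1 kb on each side of the start left out, a choice made after seeing the data, the median span difference of 74 members was 0.09 points in place of -3.82, and FGR was lower in 36 in place of 54. Over 15785 coding genes it was -0.81 in place of -1.28.

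The start share and the span level are set side by side here for 2 genes. Cox5a, a nuclear subunit of complex IV, had span levels of 84.0%, 71.9%, 47.6% and 64.4% and a start share of 9.14%, 14.98%, 47.2% and 27.4% of reads. Cox8a, the ubiquitous subunit 8, went the other way, with span levels of 21.4%, 49.3%, 65.1% and 71.8% and start shares of 69.3%, 41.5%, 46.99% and 13.6%. At CpGs listed in both groups the differences CpG by CpG were 0.05 points in Cox5a and 6.47 points in Cox8a, and with reads summed by library they were 0.44 and 11.4 points. Across 75 members the difference in start share and the difference in span level had a Pearson r of -0.865 and a Spearman rho of -0.850, given as a description, since both come from the same reads and libraries.

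**Figure D5:**
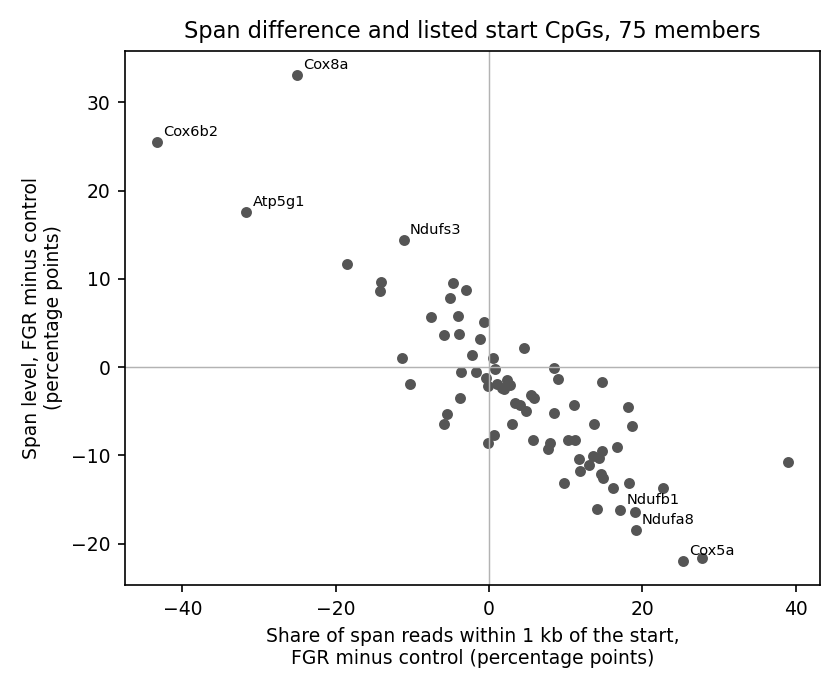
Difference between FGR and control in the share of span reads within 1 kb of the start (percentage points, horizontal axis) and in span level (percentage points, vertical axis), 1 point per member with an annotated start (75 members). Of 48 members with a higher start share in FGR, 46 had a lower span level, and of 27 with a lower start share, 9 had a lower span level.

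Of 45 genes for assembly of complexes II to V, other assembly factors of complex I and cytochrome c, 19 promoters were measured, with a median level of 1.41%, and 39 bodies, with a median of 88.9%. None was called. At an unadjusted p under 0.05, 3 promoters were lower beside 2.27% of all promoters, 3 bodies were lower beside 5.1% of all bodies, and 1 body was higher beside 1.41%. The largest promoter difference was in Uqcc1, a complex III assembly factor, with 41.5%, 31.4%, 10.1% and 4.17%. The controls were both above the FGR libraries there, with an adjusted p of 0.894 from the limma-moderated test.

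Of 9 regulators of the respiratory chain genes, including Nrf1, Gabpa, Tfam and the coactivators Ppargc1a and Pprc1, all 9 bodies were measured and 8 were lower in FGR beside 61.9% of all bodies, with a median difference of -2.87 points beside -0.71 over all bodies. None was called, and 2 were lower at an unadjusted p under 0.05 beside 5.1% of all bodies. Those were Ppargc1a, with 72.7%, 74.5%, 72.1% and 67.1%, and Nrf1, with 87.6%, 89.7%, 85.2% and 86.4%. In both, the FGR libraries lay below the controls, with differences of -4.01 and -2.87 points. Esrra, a nuclear receptor, was the 1 with a higher value, at 77.5%, 78.6%, 84.9% and 88.6%. Of the 9 promoters only 2 met the minimum for a test. Ppargc1a had 72.7%, 60%, 59.3% and 61.3% there, and Pprc1 had 0%, 0%, 0% and 2.70%. The values of these regulators and of the assembly genes are given over all listed CpGs, not over CpGs listed in both groups.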

How the data were processed

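Bisulfite sequencing had been done on sonicated DNA of 4 libraries, per the labels' protocols. Trim Galore 0.6.5, Bismark, methylKit 1.28.0 and the build mm10 are listed in the submitters' processing notes. Their settings and the version of Bismark were not given in the sources used here. The deposited tables give, per cytosine in CpG context and strand, the coverage as a count of reads and the percent methylated and unmethylated. Methylated reads were recovered from count and percent, and all came out whole within 0.02 reads.

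Strands were summed per CpG, and the 0.1% of CpGs with the highest coverage in each library were left out. Gene starts came from a RefSeq promoter table of GRCm38.p6. Of 19 members without an entry, 3 (Uqcrc2, Cox8c, Atp5mpl) had both ends measured and got the less methylated end, which favours low values. Regions needed 3 CpGs and 10 reads in every library. This left out 37 members' promoters below the minimum and 16 without a start, and 12 bodies below it and 4 with no window. Of the members, 62 windows overlapped another coding gene.

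Regions were compared with a quasi-binomial model in R 4.3.3 with limma 3.58.1 over all autosomal coding genes, Benjamini-Hochberg adjusted. The dispersion prior was estimated on genes with at least 10 methylated and 10 unmethylated reads. With a prior over all genes, no changed promoter was recovered in simulated data. On data simulated with the coverage of these libraries, 37 of 50 changes of 20 points were recovered among 20219 spans. Among 5069 promoters it was 22 of 50, and among 17427 bodies 40 of 50. Of changes of 10 points, the smallest that could be called, 13, 2 and 20 of 50 were recovered. Every gene of a region type got the same overdispersion, the median of the fit. Recovery with an overdispersion that differs between genes was not tested. Named members are the 6 largest promoter and body differences in each direction with at least 5 CpGs and 20 reads per library, promoters at 20% or more, restricted isoforms and core subunits, and some named beside them, such as Cox6b1, Cox8a, Ndufc2 and Ndufb4b, were chosen after their values were seen. The body values of 1 named member are not reported here. Members and lists were chosen with earlier results of these data known. Alternatives covered the CpGs used, minimums, windows, test, replicate number and left-out libraries.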

Additional observations from a re-analysis of the deposited data

How the results depend on the processing

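No member was called under any alternative that could be run for spans, promoters or bodies, including limma on log2 ratios and each left-out library. With 10 reads per CpG no member's promoter could be tested. The pooled promoter difference of -1.49 points turned to 2.63 at CpGs listed in all 4 libraries and to 0.82 at CpGs listed in both groups, with reads summed by library. Without 1 library it ran from -2.47 (without control 2) to -0.51 (without control 1), and it was -2.52 for 250 bp windows, -4.70 for 1000 bp windows, -6.34 at 10 reads per CpG and -0.70 as a mean of gene levels. The pooled body difference of -0.64 points turned to 0.22 at 10 reads per CpG and ran from -0.89 to -0.38 without 1 library. The cause of these turns was not tested. The median span difference of -3.54 points was -0.54 at CpGs listed in both groups, where that of all spans was also -0.54, and -2.11 without control 1, and it was -0.13 at CpGs listed in all 4 libraries. The median body difference of -0.67 turned to 1.71 at 10 reads per CpG and to 0.18 without FGR 2. Over all genes, limma called 1 promoter and the CpGs listed in all 4 libraries gave 2 called spans, none of them a member. Without 1 library, 7 to 16 spans, 0 to 4 promoters and 1 to 5 bodies of members had an unadjusted p under 0.05, beside 10, 2 and 2 with all libraries.

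The differences of 18 named promoters kept their sign in 109 of 129 comparisons with an alternative. Those of 12 named bodies kept it in 81 of 89. These comparisons reuse the same reads and leave out the comparison CpG by CpG, which is given next. CpG by CpG at CpGs listed in both groups, the promoter differences of Ndufs4, Atp5k, Ndufc1, Ndufs6, Ndufb2, Atp5j2, Cox8c and Ndufaf1 turned. Those of Ndufb7 and Ndufa11 went to 0, and those of Ndufa8, Ndufa9, Atp5g3, Ndufs5, Atp5e, Cox7b2, Ndufb8 and Ndufb10 kept their sign. The bodies of Sdhb, Atp5j and Cox5a turned CpG by CpG, and the others reported by size kept their sign. Without 1 library the promoter differences of Ndufb10, Ndufc1, Ndufb7, Ndufb2, Ndufa9, Atp5j2, Cox7b2, Cox8c and Ndufa11 also turned. Same-numbered libraries did not deviate together (correlations of 0.02 for spans and -0.02 for promoters), so the numbers were not taken as pairs. With the replicate block, 0 members were called, and the paired differences were -1.49 and -0.64 points with an exact p of 0.5, the smallest possible. Depth limits promoters most: 37 members had too few CpGs or reads in at least 1 library.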
